A study of Mus musculus with 2 samples.

Results

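The receptors through which nerves and peptide signals reach the cells of a salivary gland were followed across every cell class of the tissue. They were 9 of the 26033 genes in the files, taken by symbol: the muscarinic receptors Chrm1 and Chrm3, the adrenergic receptors Adra1a, Adra1b and Adrb1, the vasoactive intestinal peptide receptors Vipr1 and Vipr2, the substance P receptor Tacr1 and the oxytocin receptor Oxtr. All 9 had UMIs, that is, counted RNA molecules, in both libraries. In the nuclei, Chrm3, Adra1a, Adrb1, Vipr1 and Chrm1 had over 200 UMIs over both libraries, and the other 4 were sparse.

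The nuclei were prepared from salivary gland tissue at an age of 20 days, with no cell type selected. One library, labelled KO, was from the genotype Csf2-/- and the other, labelled control, from Csf2+/-, which still carries 1 disrupted allele; the strain label of both reads C56BL/6. Csf2 encodes GM-CSF, a growth factor for myeloid cells, and the series title links it to gland macrophages. The labels do not say how the allele was made, which of the salivary glands were taken, or how many animals went into a library. A genotype has only 1 library, so nothing is tested between them, and every interval below is an exact 95% interval that covers counting error only. Csf2 had 0 UMIs in the Csf2-/- library and 5 in the Csf2+/- library, which is too few to check the labels by.

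Saliva is secreted by acinar cells and modified in the ducts, and both are under autonomic control. Acetylcholine from parasympathetic nerves acts on muscarinic receptors, of which Chrm1 and Chrm3 couple through Gq to phospholipase C and calcium and drive fluid secretion. Noradrenaline acts on alpha-1 receptors through the same Gq arm, and on beta receptors through Gs and cyclic AMP, the arm that drives release of secretory protein and that the peptide VIP also uses.

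Most barcodes in the files held free RNA from broken cells: 41265 of 55517 kept barcodes in the Csf2-/- library (74.3%) and 59141 of 67940 in the Csf2+/- library (87.0%). The other 14252 and 8799 barcodes were taken as nuclei, with medians of 1954 UMIs in Csf2-/- and 2784 UMIs in Csf2+/-, against 795 and 792 UMIs in the free-RNA barcodes. The libraries shared 1367 barcodes in the files and 30 among the nuclei. The nuclei fell into 21 classes, clustered without the 9 receptors, and the 18 with at least 50 nuclei in each library were compared. Class names are rebuilt here from marker genes. A class that passed no marker rule keeps its leading genes as its name, so the largest one, with 6266 Csf2-/- and 3914 Csf2+/- nuclei, is the Sox10/Dennd2d class. The 12 seromucous acinar markers summed to 53683 CPM (counts scaled to a common total) in its Csf2-/- nuclei. The other Csf2-/- nuclei had 38197 CPM, and in Csf2+/- the sums were 38822 against 23135 CPM. These sums include free RNA, estimated at 43.2% of the UMIs of the class in Csf2-/- and 39.3% in Csf2+/-. On their own they cannot tell acinar expression from free RNA. With free RNA included, 11 of the 12 markers were above the other nuclei with the libraries pooled, and 8 in each library. Only Bhlha15 and Lpo exceeded the rest by 2-fold or more. Names were given to clusters before they were merged, and no cluster of this class met the rule, so it was not named acinar. The mucous acinar-like class lacked its marker Bpifb2.

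Levels are given in CPM of all UMIs of a class and are compared within a gene only. Beside them stand the free-RNA level and the UMIs that the estimated free RNA of a class would hold. Across 8 receptors with at least 20 UMIs and 18 classes, 15 of 144 receptor and class pairs were at least 2-fold above all other nuclei in both libraries (5.61% of all gene and class pairs) and 72 were at least 2-fold below (19% of all pairs). Of the 72, 33 had 0 UMIs in the class in both libraries and rest on the sparse receptors. Adra1a was among the 72 in every class but the luminal duct-like, ionocyte-like and basal duct-like ones. Its mean over the other nuclei there includes its high luminal duct-like and ionocyte-like nuclei. Of the 15, 3 rested on 3 or fewer UMIs in a library, and the other 12 concerned Adra1a, Adra1b, Adrb1, Vipr1, Vipr2 and Chrm1.

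**Figure D1:**
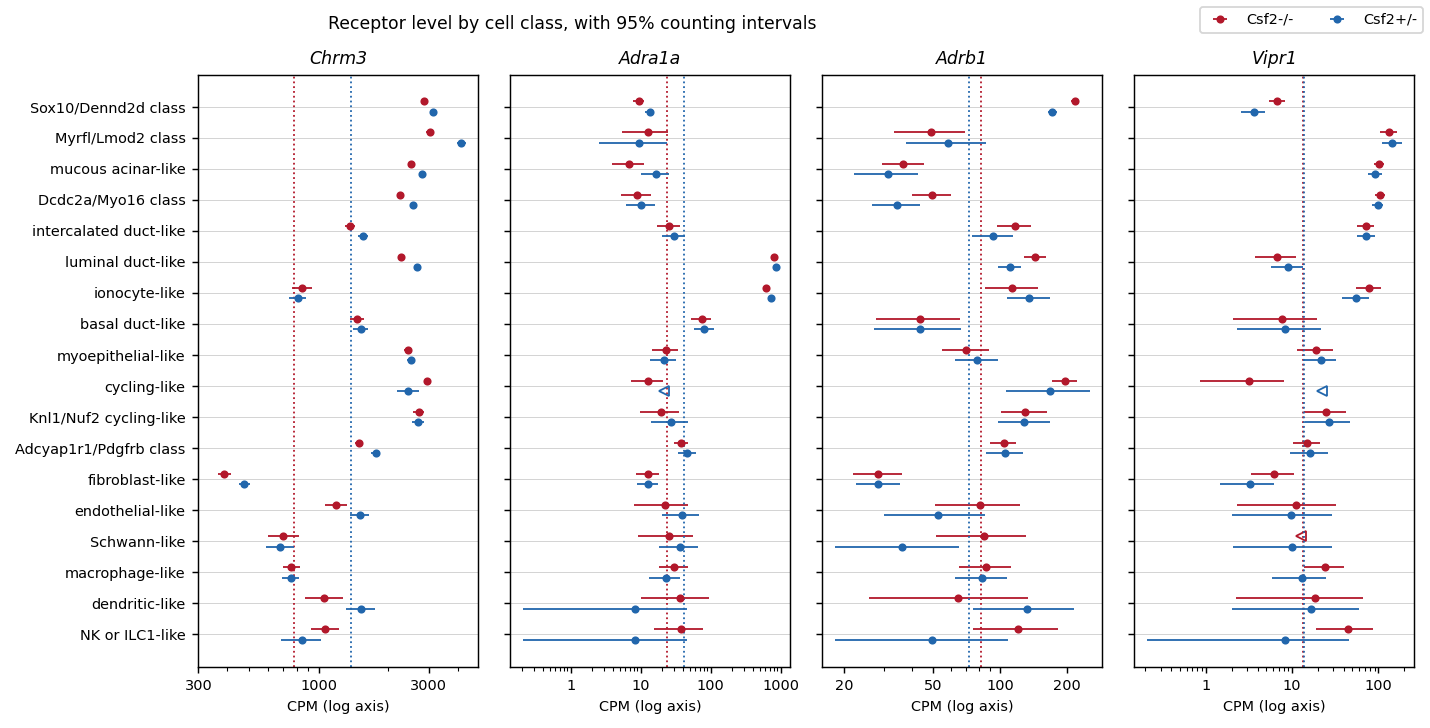
Levels of Chrm3, Adra1a, Adrb1 and Vipr1 in CPM (log axes) in 18 classes, Csf2-/- in red and Csf2+/- in blue, with 95% counting intervals; dotted lines mark the free RNA of each library and open triangles the limit set by 0 UMIs. Chrm3 has UMIs in all classes, in fibroblast-like nuclei not separable from free RNA. Adra1a stands high in luminal duct-like and ionocyte-like nuclei, Adrb1 is highest in the Sox10/Dennd2d class, and Vipr1 is highest in the Myrfl/Lmod2 class.

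Chrm3, the M3 receptor and the main muscarinic receptor of salivary secretion, was found across the epithelial classes and in some others. In the Sox10/Dennd2d class it had 35320 UMIs in Csf2-/- and 34838 UMIs in Csf2+/-, or 2851 and 3120 CPM. After each nucleus was thinned to 1000 UMIs, 91.3% of its Csf2-/- and 93.2% of its Csf2+/- nuclei held a Chrm3 UMI (96.6% and 97.9% before thinning). The estimated free RNA of the class held 4157 and 6042 UMIs, so the counts were 8.50 and 5.77 times what free RNA would give.

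The highest Chrm3 level was in the Myrfl/Lmod2 class, at 3039 CPM (2905 to 3178) in Csf2-/- and 4154 CPM (3963 to 4351) in Csf2+/-. In this class 7 of 12 seromucous acinar markers were above the other nuclei, with the near-identical copies Dcpp1, Dcpp2 and Dcpp3 counted singly. Mucous acinar-like nuclei had 2523 CPM in Csf2-/- and 2802 CPM in Csf2+/-. Luminal duct-like nuclei followed with 2285 and 2672 CPM, and the contractile myoepithelial-like nuclei with 2431 and 2505 CPM. Secretory, ductal and contractile epithelium thus all carried the transcript, and so did the Knl1/Nuf2 cycling-like nuclei, at 2709 CPM in Csf2-/- and 2695 CPM in Csf2+/-.

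Other epithelial classes stood lower. Intercalated duct-like nuclei had 1370 CPM of Chrm3 in Csf2-/- and 1556 CPM in Csf2+/-. Ionocyte-like nuclei, the proton-pump-rich cells of the ducts, had 845 and 808 CPM, which was 2.91 and 1.73 times the free-RNA estimate. Ionocyte-like nuclei were thereby at least 2-fold below all other nuclei in both libraries, a side on which 19.5% of the 15973 genes tested stood in that class.

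The low end was fibroblast-like nuclei, at 389 CPM (364 to 415) in Csf2-/- and 475 CPM (449 to 501) in Csf2+/-. These levels were 1.47 and 1.08 times the free-RNA estimate, so expression in fibroblasts was not separable from background. After thinning, 26.9% of Csf2-/- and 33.6% of Csf2+/- fibroblast-like nuclei still held a Chrm3 UMI (47.7% and 69.0% before), with median depths of 2358 and 3106.5 UMIs. Of the free-RNA barcodes, 54.7% in Csf2-/- and 74.3% in Csf2+/- held one. Those barcodes are taken wholly as free RNA, against an estimated 34.0% and 32.0% of the UMIs of fibroblast-like nuclei. The shares therefore cannot decide whether the UMIs in fibroblast-like nuclei are background. Schwann-like and macrophage-like nuclei were close above the fibroblasts, between 681 and 761 CPM in both libraries. Against the free-RNA estimate they stood at 2.09 and 2.46 times in Csf2-/-, but at only 1.29 and 1.40 times in Csf2+/-. Chrm3 was not confined to the epithelium, however. Endothelial-like nuclei had 1191 CPM in Csf2-/- and 1507 CPM in Csf2+/-, or 3.53 and 2.27 times the estimate. The Adcyap1r1/Pdgfrb class, with 9 of 10 fibroblast markers above the other nuclei in both libraries, had 1490 and 1765 CPM (4.53 and 3.26 times). Dendritic-like nuclei had 1058 and 1520 CPM (2.23 and 2.11 times).

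Between the highest and the lowest class the Chrm3 level differed 7.81-fold in Csf2-/- and 8.75-fold in Csf2+/-. Of the 17 neighbouring pairs in the order of the classes, 12 overlapped in the ranges spanned by the 2 libraries, so most neighbours in the order do not differ beyond the gap between the libraries. Spearman's rho between the libraries over the 18 classes was 0.93, a description over classes that share their library and its free RNA.

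Chrm1, the M1 receptor, also a Gq receptor, was sparse, with 129 UMIs in Csf2-/- nuclei and 81 UMIs in Csf2+/- nuclei. It was highest in the Dcdc2a/Myo16 class, at 15.9 CPM (10.9 to 22.5) from 32 UMIs in Csf2-/- and 13.4 CPM (8.68 to 19.8) from 25 UMIs in Csf2+/-. The class stood 2.24 log2 units above the other nuclei of Csf2-/- (interval 1.62 to 2.83) and 2.58 above those of Csf2+/- (1.83 to 3.28), where 2.76% of all genes tested were at least 2-fold higher. After thinning, 1.37% of its Csf2-/- and 1.28% of its Csf2+/- nuclei held a UMI, against 0.235% and 0.323% of the free-RNA barcodes. The Dcdc2a/Myo16 class had 974 and 633 nuclei and carries no cell type name.

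The Sox10/Dennd2d class had 2.83 CPM of Chrm1 in Csf2-/- and 2.69 CPM in Csf2+/-, close to the 3.01 and 3.07 CPM of free RNA. Myoepithelial-like nuclei had 8 UMIs in Csf2-/- and 9 UMIs in Csf2+/-, or 7.94 and 8.75 CPM. Chrm1 and Chrm3 thus differed in where they peaked: the class highest in Chrm1 had Chrm3 at 2240 CPM in Csf2-/- and 2559 CPM in Csf2+/-, against 2244 and 2372 CPM in the other nuclei.

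Adra1a, the alpha-1A receptor, was high in luminal duct-like and ionocyte-like nuclei. Luminal duct-like nuclei had 1790 UMIs, or 798 CPM (762 to 836), in Csf2-/- and 2257 UMIs, or 871 CPM (836 to 908), in Csf2+/-. The other nuclei averaged 27.9 CPM in Csf2-/- and 37.4 CPM in Csf2+/-, so the class was 28.6-fold and 23.3-fold higher (log2 ratios of 4.84 and 4.54). In this class 6.07% of all genes tested were at least 2-fold higher.

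Free RNA covered little of this duct signal. The free-RNA estimate for the class was 20.3 UMIs in Csf2-/- and 36.1 UMIs in Csf2+/-, and the counts were 88.2 and 62.5 times those. After thinning, 49.0% of Csf2-/- and 51.1% of Csf2+/- luminal duct-like nuclei held an Adra1a UMI (70.3% and 82.5% before), against 2.69% and 4.24% of free-RNA barcodes.

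Ionocyte-like nuclei, where 4.46% of all genes tested were at least 2-fold higher, came second with 627 CPM (558 to 702) from 299 UMIs in Csf2-/- and 726 CPM (660 to 796) from 448 UMIs in Csf2+/-. The gap to the third class was wide. Basal duct-like nuclei had 74.3 CPM in Csf2-/- and 81.4 CPM in Csf2+/-, from 39 UMIs in each library. This was below the 84.2 and 119 CPM of the other nuclei, which include the luminal duct-like and ionocyte-like ones. It was still 10.1 and 6.74 times the free-RNA estimate. Intercalated duct-like nuclei had 29 UMIs in each library, with log2 ratios of -1.74 in Csf2-/- and -2.02 in Csf2+/- over the other nuclei. Their counts were 2.48 and 1.84 times the free-RNA estimate. High Adra1a was therefore not shared by all duct classes.

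Classes with acinar markers held Adra1a near the free-RNA estimate. The Sox10/Dennd2d class had 9.44 CPM of Adra1a in Csf2-/- and 13.4 CPM in Csf2+/-, under the 24.2 and 42.0 CPM of free RNA and at 0.90 and 0.81 times the estimate for its own free RNA. Mucous acinar-like nuclei had 16 UMIs in Csf2-/- and 20 UMIs in Csf2+/-. Chrm3 and Adra1a, which share the Gq arm, therefore overlapped in the luminal ducts: after thinning, Adra1a was found in 47.5% of Csf2-/- and 50.9% of Csf2+/- luminal duct-like nuclei with a Chrm3 UMI, and in 55.9% and 53.3% of those without one.

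Luminal duct-like nuclei formed 2 clusters that the libraries filled unequally: cluster 6 held 831 Csf2-/- and 360 Csf2+/- nuclei, and cluster 11 held 170 and 430. Adra1a was high in both, at 756 CPM in Csf2-/- and 683 CPM in Csf2+/- in cluster 6, and at 965 and 1020 CPM in cluster 11. The kallikrein Klk1, a product of granular duct cells, was at 2502 CPM in Csf2-/- and 2463 CPM in Csf2+/- in cluster 11, against 1851 and 2113 CPM in cluster 6. Of the 13 luminal duct markers, 5 were higher in cluster 11 in both libraries, 5 were lower in both and 3 were neither, so the markers as a group did not follow Adra1a.

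Adra1b, the alpha-1B receptor, had 15 UMIs in Csf2-/- nuclei and 30 UMIs in Csf2+/- nuclei. Luminal duct-like nuclei held 9 of them in Csf2-/- and 11 in Csf2+/-, at 4.01 CPM (1.84 to 7.62) and 4.25 CPM (2.12 to 7.60). In ionocyte-like nuclei it had 0 UMIs in Csf2-/- and 5 UMIs in Csf2+/- (8.10 CPM). In Csf2+/- another 6 UMIs fell in a small fibroblast-like cluster of 44 nuclei led by Adamts16 and Gpr1, which held 0 in the 37 nuclei of Csf2-/-.

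Adrb1, the beta-1 receptor and a Gs receptor, was highest in the Sox10/Dennd2d class, with 2679 UMIs, or 216 CPM (208 to 225), in Csf2-/- and 1913 UMIs, or 171 CPM (164 to 179), in Csf2+/-. The other nuclei averaged 85.5 CPM in Csf2-/- and 70.4 CPM in Csf2+/-, so the log2 ratios were 1.34 (1.25 to 1.43) and 1.28 (1.18 to 1.39). Only 1.52% of all genes tested were at least 2-fold higher in this class in both libraries. The counts were 6.13 and 6.01 times the free-RNA estimate, and after thinning 18.6% of Csf2-/- and 15.8% of Csf2+/- nuclei held an Adrb1 UMI (32.1% and 35.3% before), against 8.10% and 6.98% of free-RNA barcodes.

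Cycling-like nuclei had Adrb1 at 195 CPM in Csf2-/- and 168 CPM in Csf2+/-, overlapping the Sox10/Dennd2d class. Luminal duct-like nuclei had 143 and 110 CPM, ionocyte-like nuclei 113 and 134 CPM, and intercalated duct-like nuclei 116 and 93.2 CPM. The transcript was therefore present in ducts too. It was low in the Dcdc2a/Myo16 class, at 49.3 CPM in Csf2-/- and 34.3 CPM in Csf2+/-, and in mucous acinar-like nuclei, at 36.8 and 31.2 CPM, and lowest in fibroblast-like nuclei, at 28.3 CPM in each library, which was 1.02 and 1.22 times the free-RNA estimate.

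**Figure D2:**
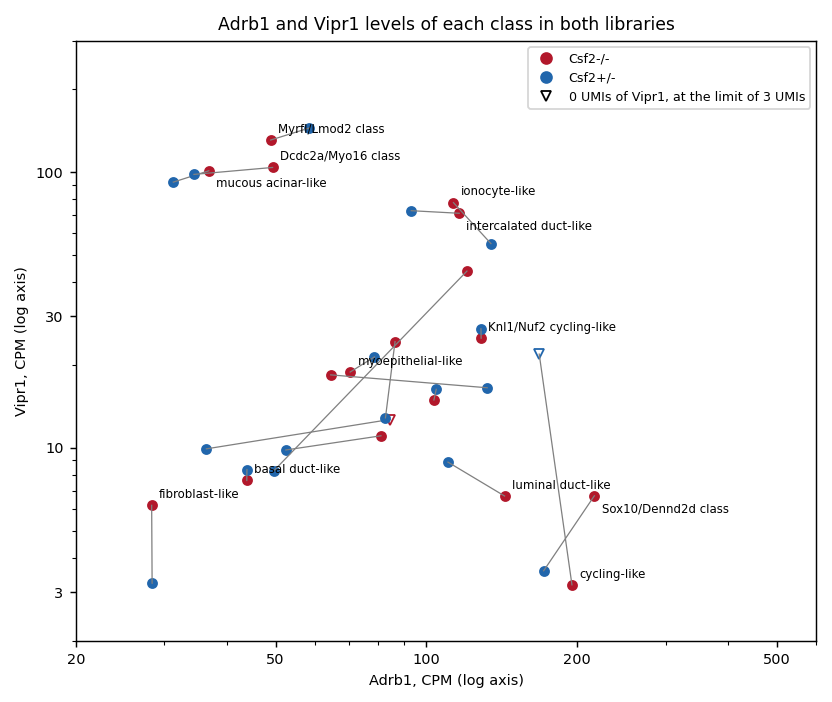
Adrb1 (x axis) against Vipr1 (y axis) in CPM on log axes, 1 point per class and library joined by a line within a class, Csf2-/- in red and Csf2+/- in blue; open triangles are 0 UMIs of Vipr1 drawn at the limit of 3 UMIs. The Sox10/Dennd2d class sits low and to the right, with 6.70 and 3.58 CPM of Vipr1, while the Dcdc2a/Myo16, mucous acinar-like and Myrfl/Lmod2 classes sit high and to the left.

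Vipr1, the VPAC1 receptor for VIP and PACAP and also a Gs receptor, was high in other classes than Adrb1. The Myrfl/Lmod2 class led with 131 CPM (104 to 162) from 83 UMIs in Csf2-/- and 145 CPM (111 to 186) from 62 UMIs in Csf2+/-, log2 ratios of 2.33 and 2.77 over the other nuclei where 2.32% of all genes tested were at least 2-fold higher. The Dcdc2a/Myo16 class had 104 CPM in Csf2-/- and 98.2 CPM in Csf2+/-, and mucous acinar-like nuclei had 101 and 92.1 CPM. These 3 classes held Vipr1 at 18.2 to 35.5 times their free-RNA estimates.

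Intercalated duct-like nuclei had 71.0 CPM of Vipr1 in Csf2-/- and 72.5 CPM in Csf2+/-, and ionocyte-like nuclei 77.6 and 55.1 CPM. Together these made 5 of 18 classes that passed 2-fold in both libraries; of all genes tested, 3.83% passed that in the mucous acinar-like, 4.01% in the intercalated duct-like and 4.46% in the ionocyte-like class. After thinning, 10.2% of Csf2-/- and 8.77% of Csf2+/- nuclei of the Dcdc2a/Myo16 class held a Vipr1 UMI (19.0% and 24.0% before), against 1.36% and 1.41% of free-RNA barcodes.

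The class highest in Adrb1 held Vipr1 near its free-RNA estimate. The Sox10/Dennd2d class held 83 Vipr1 UMIs in Csf2-/- and 40 UMIs in Csf2+/-, or 6.70 and 3.58 CPM, 1.17 and 0.67 times that estimate. Luminal duct-like nuclei were also low, at 6.69 CPM in Csf2-/- and 8.88 CPM in Csf2+/-. Of the Gs receptors, then, Adrb1 marked the large Sox10/Dennd2d class and Vipr1 marked the Myrfl/Lmod2, Dcdc2a/Myo16 and mucous classes, while ionocyte-like and intercalated duct-like nuclei carried both. Both were also over 2 times the free-RNA estimate in each library in Knl1/Nuf2 cycling-like, myoepithelial-like, Adcyap1r1/Pdgfrb and macrophage-like nuclei. There Vipr1 was lower, at 12.8 to 27.0 CPM.

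**Figure D3:**
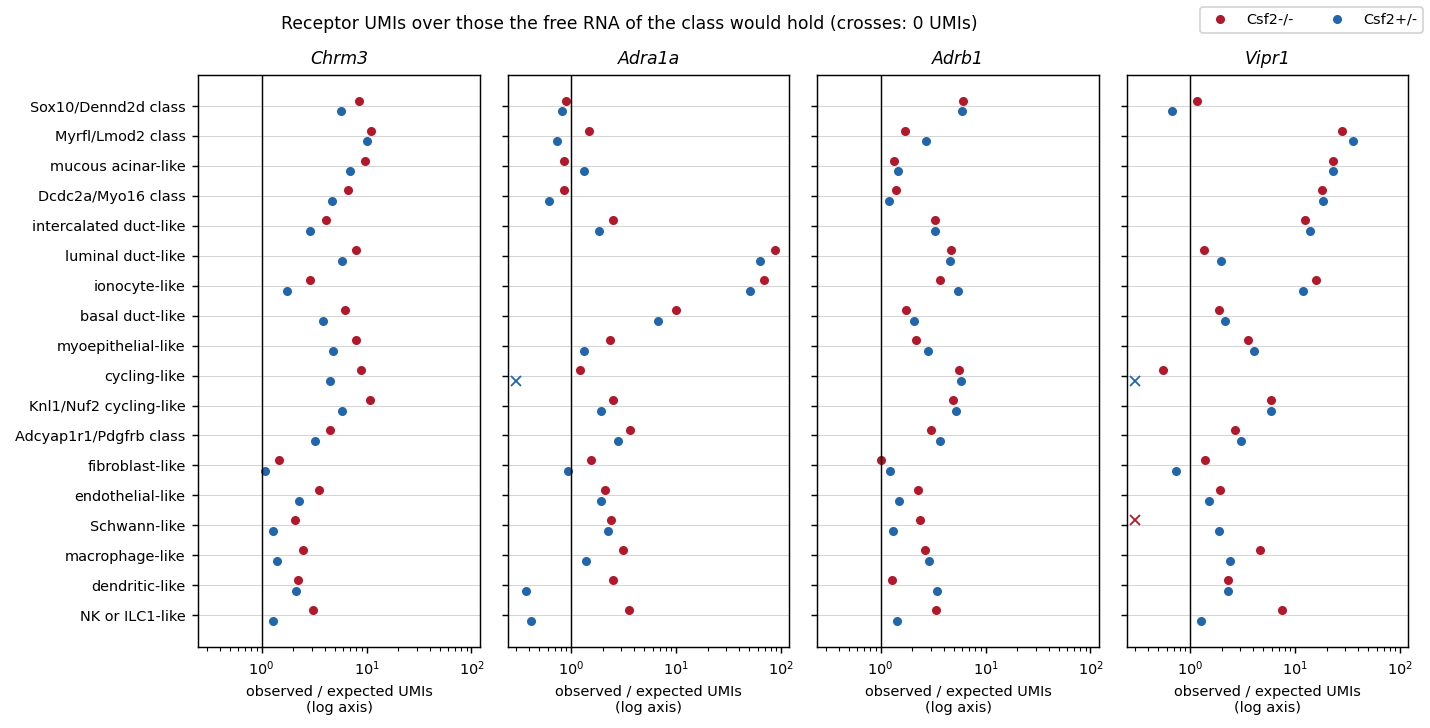
Receptor UMIs of each class divided by those its estimated free RNA would hold (log axis), Csf2-/- in red and Csf2+/- in blue, with a line at 1 and crosses for 0 UMIs. Adra1a reaches 88.2 and 62.5 in luminal duct-like nuclei and lies at 0.90 and 0.81 in the Sox10/Dennd2d class, where Adrb1 lies at 6.13 and 6.01.

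Vipr2, the VPAC2 receptor, had 48 UMIs in Csf2-/- nuclei and 49 UMIs in Csf2+/- nuclei. Mucous acinar-like nuclei held 16 in Csf2-/- and 15 in Csf2+/-, at 6.92 CPM (3.96 to 11.2) and 12.3 CPM (6.90 to 20.3). Fibroblast-like nuclei held 10 and 15 UMIs, at 4.42 CPM in Csf2-/- and 5.38 CPM in Csf2+/-, in a class where 13.4% of all genes tested were at least 2-fold higher. The free RNA had 1.09 CPM in Csf2-/- and 0.450 CPM in Csf2+/-. Mucous acinar-like nuclei were thus the one class to pass 2-fold for both VIP receptors with over 3 UMIs per library, and fibroblast-like nuclei carried Vipr2 with Vipr1 at only 1.38 and 0.74 times the free-RNA estimate.

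Tacr1, the neurokinin-1 receptor for substance P, had 12 UMIs in Csf2-/- nuclei and 10 UMIs in Csf2+/- nuclei. Of these, 6 and 1 were in myoepithelial-like nuclei, 4 and 0 in the Adcyap1r1/Pdgfrb class and 0 and 5 in fibroblast-like nuclei. The libraries did not share a leading class. Oxtr, the oxytocin receptor, had 1 UMI in Csf2-/- nuclei and 3 UMIs in Csf2+/- nuclei. Myoepithelial-like nuclei had 0 in both, which allows up to 2.98 CPM in Csf2-/- and 2.92 CPM in Csf2+/-. Oxytocin acts on the myoepithelium of the mammary gland, and its receptor was not detectable in that of these salivary glands at this depth.

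The 5 genes most alike to each well-counted receptor were ranked by Pearson's r of log2(CPM + 10) over 36 points, the 18 classes in 2 libraries, among 11088 genes with at least 200 UMIs. The points share libraries, depth and free RNA, and some genes helped to set the classes, so the ranking is a description. For Adra1a these included Fxyd2, a regulator of the sodium pump (0.91), Cwh43 (0.91), the epithelial sodium channel subunit Scnn1b (0.91) and the proton pump subunit Atp6v0d2 (0.91). For Chrm3 they were Atxn1 (0.88), Larp1b (0.86), Plcb4, a phospholipase C (0.85), the thyroid hormone receptor Thrb (0.85) and the transcription elongation factor Ell2 (0.83). The closest for Vipr1 was Lyzl4 (0.83), followed by A2ml1, Tmc5, Gclc and Rab22a (0.78 to 0.73). For Adrb1, Clec2d came first (0.78), then Srsf10, Vamp1, Tfrc and Smg5 (0.74 to 0.72). For Chrm1 the order was Rab22a (0.76), Dcdc2a, Ndst4, Ttc39c and Pls1 (0.72 to 0.68). The highest r was larger for Adra1a and Chrm3 than for Adrb1 and Chrm1. The receptors differ in UMIs and in range over the classes, so r does not rank them by how closely they are matched.

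Of 20 related receptors outside the 9, 13 had at least 20 UMIs in the nuclei. Adra2a, an inhibitory adrenergic receptor, was highest in the Dcdc2a/Myo16 class, at 25.9 CPM in Csf2-/- and 42.4 CPM in Csf2+/-, together with Ramp1, a subunit of the CGRP receptor, at 142 and 162 CPM.

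Chrm2, the inhibitory M2 receptor, was highest in endothelial-like nuclei, at 166 CPM in Csf2-/- and 102 CPM in Csf2+/-. Calcrl, the other CGRP receptor subunit, had 221 and 364 CPM there. The PACAP receptor Adcyap1r1 had 52.6 CPM in Csf2-/- and 67.4 CPM in Csf2+/- fibroblast-like nuclei, and the vasopressin receptor Avpr1a 5.30 and 3.23 CPM. Of the ATP-gated channels, P2rx4 was at 279 CPM in Csf2-/- and 324 CPM in Csf2+/- in the Sox10/Dennd2d class, and P2rx7 was at 149 and 143 CPM in macrophage-like nuclei.

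Of 17 transmitter, peptide and growth factor genes, 9 had at least 20 UMIs. Nrtn, a trophic factor of parasympathetic neurons, was highest in myoepithelial-like nuclei, with 66.5 CPM in Csf2-/- and 49.6 CPM in Csf2+/-. The noradrenaline transporter Slc6a2 had 18.9 and 27.5 CPM in ionocyte-like nuclei from 9 and 17 UMIs and 9.09 and 10.7 CPM in mucous acinar-like nuclei from 21 and 13 UMIs, and the Myrfl/Lmod2 class held 7 and 8 UMIs. The cholinesterase Bche had 9.76 and 28.0 CPM in intercalated duct-like and 24.8 and 10.4 CPM in basal duct-like nuclei.

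All 19 genes of the Gq and calcium arm were measured. Plcb4, a phospholipase C, had 2827 CPM in Csf2-/- and 3741 CPM in Csf2+/- in the Sox10/Dennd2d class, where Plcb1 had 33.6 and 50.3 CPM. In ionocyte-like nuclei Plcb4 was below the other nuclei, at 734 CPM in Csf2-/- and 911 CPM in Csf2+/- (log2 ratios of -1.49 and -1.54), and Plcb1 above them, at 1585 and 1520 CPM (2.76 and 2.46). The inositol trisphosphate receptor Itpr2 was highest in ionocyte-like nuclei at 3363 CPM in Csf2-/- and 3501 CPM in Csf2+/- (log2 ratios of 3.89 and 3.78), and in luminal duct-like nuclei it had 715 and 802 CPM. Itpr1 had 871 CPM in Csf2-/- and 991 CPM in Csf2+/- in luminal duct-like nuclei, and 909 and 766 CPM in myoepithelial-like nuclei. Both classes high in Adra1a thus held an inositol trisphosphate receptor above the other nuclei, and so did the myoepithelium. Gnaq, the Gq alpha subunit, had 1660 and 1756 CPM in ionocyte-like nuclei. Prkca, a protein kinase C, had 324 and 422 CPM in the Sox10/Dennd2d class. Outside the epithelium, Prkcb, another protein kinase C, had 597 CPM in Csf2-/- and 443 CPM in Csf2+/- macrophage-like nuclei, where Plcb2 had 25.8 and 22.8 CPM, and the channel Trpc1 had 17.7 and 16.9 CPM in fibroblast-like nuclei.

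All 23 genes of the Gs and cyclic AMP arm were measured too. Gnas, the Gs alpha subunit, was highest in the Dcdc2a/Myo16 class, at 3461 CPM in Csf2-/- and 4474 CPM in Csf2+/- (log2 ratios of 2.46 and 2.88). The adenylyl cyclases divided by class: Adcy8 had 1083 and 1251 CPM in the Myrfl/Lmod2 class and 852 and 1160 CPM in the Sox10/Dennd2d class, against 184 and 243 CPM in the Dcdc2a/Myo16 class. Adcy2 had 626 CPM in Csf2-/- and 823 CPM in Csf2+/- in mucous acinar-like nuclei (log2 ratios of 4.87 and 4.89), and Adcy5 had 122 and 149 CPM in ionocyte-like nuclei. Adcy6 and Adcy9 had 342 and 301 CPM in Csf2-/-, against 349 and 334 CPM in Csf2+/-, in the Sox10/Dennd2d class. Prkar1b, a regulatory subunit of protein kinase A, had 45.0 CPM in Csf2-/- and 43.2 CPM in Csf2+/- luminal duct-like nuclei (log2 ratios of 3.07 and 2.67). The cyclic AMP sensor Rapgef4 was highest in endothelial-like nuclei, at 645 and 793 CPM, where Adcy4 had 103 and 88.4 CPM. Adcy7 had 234 CPM in Csf2-/- and 237 CPM in Csf2+/- macrophage-like nuclei, and Adcy3 58.3 and 71.0 CPM in fibroblast-like nuclei.

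Of 12 genes that switch such receptors off, 11 were measured. Grk3, a receptor kinase, had 222 CPM in Csf2-/- and 268 CPM in Csf2+/- in the Sox10/Dennd2d class, where Grk2 had 34.1 and 34.0 CPM and the arrestin Arrb1 36.2 and 38.2 CPM. Grk5 was highest in fibroblast-like nuclei, at 316 and 333 CPM, and Arrb2 in macrophage-like nuclei, at 243 and 246 CPM. The G protein regulator Rgs3 had 263 CPM in Csf2-/- and 160 CPM in Csf2+/- in Knl1/Nuf2 cycling-like nuclei.

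Between genotypes few receptor levels differed by 2-fold. Of 66 receptor and class pairs with at least 20 UMIs, 2 were at least 2-fold higher in Csf2-/- (3.33% of all gene and class pairs) and 2 at least 2-fold lower (2.96% of all pairs), a share near that of all genes. The higher pairs were Adrb1 in Schwann-like nuclei, with 20 UMIs in Csf2-/- and 11 UMIs in Csf2+/- (log2 ratio 1.22, interval 0.09 to 2.42; 1.06, -0.07 to 2.27, without 1 nucleus with neuronal genes), and in NK or ILC1-like nuclei, with 22 and 6 UMIs (1.28, -0.07 to 2.87). The lower pairs were Adrb1 in dendritic-like nuclei, with 7 and 16 UMIs (-1.04, -2.56 to 0.32), and Adra1a in mucous acinar-like nuclei, with 16 and 20 UMIs (-1.25, -2.29 to -0.23). All 4 rested on few UMIs, and none had an interval wholly past 2-fold. Of all genes tested in those classes, 3.21% were as much higher in Schwann-like and 4.89% in NK or ILC1-like nuclei, and 11.4% as much lower in dendritic-like and 1.77% in mucous acinar-like nuclei.

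**Figure D4:**
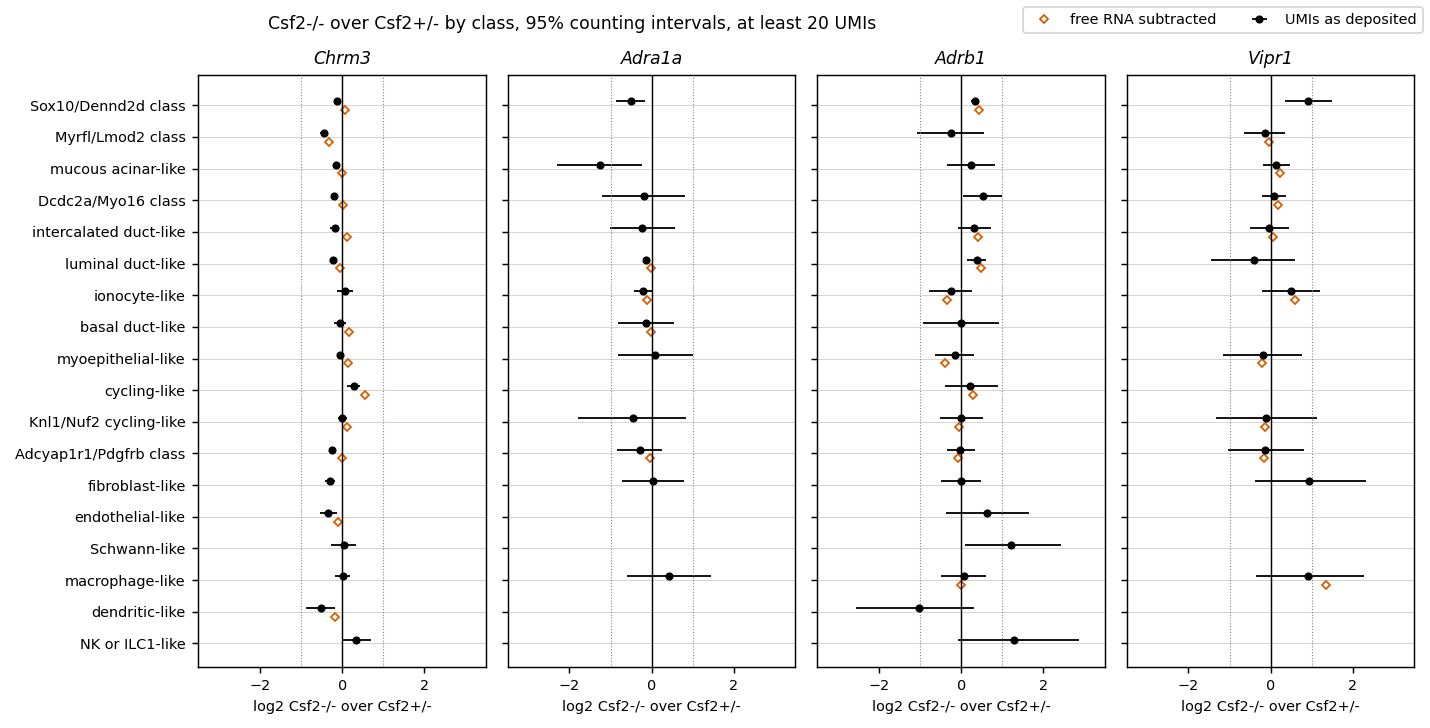
Log2 ratio of Csf2-/- over Csf2+/- per class with 95% counting intervals (black), and after the free-RNA estimate was subtracted (orange, for classes with at least 2 times the estimate in both libraries), for pairs with at least 20 UMIs; dotted lines mark 2-fold. Chrm3 lies between -0.52 and 0.34 as deposited, and in the Sox10/Dennd2d class it is -0.13 before subtraction and 0.06 after it.

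Chrm3 was lower in Csf2-/- in 12 of 18 classes, with a median log2 ratio of -0.14. In the Sox10/Dennd2d class the ratio was -0.13 (-0.15 to -0.11), where the median over all genes was -0.08, and in the Myrfl/Lmod2 class -0.45 (-0.54 to -0.36). The free RNA of the Csf2-/- library held 777 CPM of Chrm3 against 1377 CPM in Csf2+/-, a log2 ratio of -0.83. After subtraction of the free-RNA estimate, Chrm3 was lower in Csf2-/- in 5 of 18 classes (5 of the 13 with at least 2 times the estimate in both libraries), the Sox10/Dennd2d class had a ratio of 0.06 and the Myrfl/Lmod2 class had -0.32. The Sox10/Dennd2d class held 4 clusters, filled by 3701, 474, 2045 and 46 Csf2-/- nuclei and 399, 3241, 266 and 8 Csf2+/- nuclei, in which the ratios were -0.02, 0.05, 0.60 and 0.40. The direction for Chrm3 in that class therefore cannot be given.

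Adrb1 was higher in the Csf2-/- Sox10/Dennd2d class, by 0.34 log2 units (0.25 to 0.42), and in its 3 larger clusters by 0.51, 0.37 and 1.21. In the smallest cluster, with 12 UMIs in Csf2-/- and 3 UMIs in Csf2+/-, the ratio was -0.19 (-2.08 to 2.28). Luminal duct-like nuclei had 0.38 (0.14 to 0.61) and the Dcdc2a/Myo16 class 0.52, from 99 and 64 UMIs, and the free RNA 0.17. Adrb1 was above 0 in 11 of 18 classes, with a median log2 ratio of 0.14. After subtraction of the free-RNA estimate it was above 0 in 10 of 18 classes, with a median of 0.014. Of the 9 classes with at least 2 times the estimate in both libraries, 5 were then above 0 and 4 below. Whether the gaps in Adrb1 lie between genotypes or only between these 2 libraries cannot be told apart.

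Adra1a in luminal duct-like nuclei differed by -0.13 (-0.22 to -0.04), by 0.15 in cluster 6 and by -0.08 in cluster 11, so the direction turned with the cluster. Ionocyte-like nuclei had a ratio of -0.21 (-0.43 to 0.00). Vipr1 in its leading classes differed by -0.15 (-0.64 to 0.35) in the Myrfl/Lmod2 class, by 0.08 (-0.21 to 0.38) in the Dcdc2a/Myo16 class and by 0.14 (-0.19 to 0.48) in mucous acinar-like nuclei. These intervals reach across 0 and do not reach 2-fold. In the Sox10/Dennd2d class, where Vipr1 was near background, the ratio was 0.90 (0.34 to 1.49).

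Among the pathway genes, 17 of 746 gene and class pairs were at least 2-fold higher in Csf2-/- and 27 at least 2-fold lower, beside the 3.33% and 2.96% of all gene and class pairs. Within the classes, 3 genes had an interval wholly past 2-fold, all in Schwann-like nuclei: Prkca, with 1441 CPM in Csf2-/- and 572 CPM in Csf2+/- (log2 ratio 1.33), Adcy2, with 3 UMIs and 29 UMIs (-2.92), and Vip, with 0 and 44 UMIs. The limit of 3 UMIs that a count of 0 allows puts Vip in Csf2-/- at up to 12.7 CPM, against 145 CPM in Csf2+/-. The share of all genes with an interval wholly past 2-fold was not taken, so the count of 3 genes has no such share beside it.

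All 44 of those Vip UMIs, and 24 of the 29 of Adcy2, came from 1 Csf2+/- nucleus of 30111 UMIs. It held 74 UMIs of Elavl4, 35 of Snap25 and 14 of Prph, which are neuronal genes, and 0 of the Schwann cell gene Cdh19. It also held 11 UMIs of the choline transporter Slc5a7 and 2 of the acetylcholine-forming enzyme Chat, together with 18 UMIs of Chrm2 and 18 of Chrm3. Without it, Adcy2 had a log2 ratio of -0.53 and Prkca 1.40.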

How the data were processed

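Nuclear RNA of 2 libraries was counted. Per the labels' protocols the libraries used the 10x Chromium 3' kit v2, and per the submitters' processing notes Cell Ranger 7.0.0 and genome build GRCm39; the annotation and whether intronic reads were counted are not given in the sources used here. The deposited values are raw UMI counts per gene and barcode, 75630815 in the Csf2-/- file (74339 barcodes) and 76002888 in the Csf2+/- file (68460 barcodes). Replicate cultures or animals are not named, so each genotype is 1 sample and no p-value is given.

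Barcodes with at least 500 UMIs, 300 genes and under 5% mitochondrial UMIs were clustered with scanpy 1.11.5 (2000 variable genes, 30 components, 20 neighbours, Leiden with igraph 0.11.9 at resolution 1.0), without the receptors, Csf2, mitochondrial, ribosomal and sex-linked genes. Clusters with at least 0.75 times the share of 8 secretory genes seen in barcodes under 1000 UMIs were called free RNA. The nuclei were clustered again at resolution 1.5. Classes were merged from clusters, which were named from marker lists. A cluster took a name where 3 or more markers, each with 10 or more UMIs, exceeded the rest of the nuclei 2-fold. For this rule Dcpp1, Dcpp2 and Dcpp3 counted as 1 marker, and the 10 leading genes had not to go against the name. Scrublet marked 5 Csf2-/- and 2 Csf2+/- nuclei, did not work, and doublets were left in.

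UMIs were summed per class and library. Intervals are exact Poisson (levels), conditional binomial (ratios) and Clopper-Pearson (shares). The free RNA of a class was estimated from its share of the 8 secretory genes, set for secretory classes to at most the median of the non-secretory ones. For shares, nuclei were thinned to 1000 UMIs, which kept 13836 Csf2-/- and 8540 Csf2+/- nuclei. Clusters too small to class held 74 and 44 nuclei. The ratio and thinning steps were tested on simulated data. Python 3.11.15, scipy 1.17.1, numpy 2.4.6, pandas 2.3.3, scikit-learn 1.9.0 and matplotlib 3.10.9 were used.

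The receptors, marker lists and pathway lists were chosen with earlier results of these data known. Named were all 9 receptors, the 5 genes most alike to each receptor with at least 100 UMIs, and per pathway list the 4 genes with most UMIs, those at least 4-fold above the other nuclei in a class in both libraries and those with a genotype interval wholly past 2-fold. Some genes that these rules name are not reported here.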

Additional observations from a re-analysis of the deposited data

How the results depend on the processing

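The class with the highest level of each well-counted receptor stayed the same under the alternative runs, apart from Chrm3 in Csf2-/- with free RNA subtracted. There, cycling-like nuclei led with 4615 CPM, above the Sox10/Dennd2d class (4430 CPM) and the Myrfl/Lmod2 class (4268 CPM). In Csf2+/- the Myrfl/Lmod2 class still led, at 5346 CPM. The runs took nuclei with at least 1000 UMIs or under 1% mitochondrial UMIs, Leiden resolution 1.0 or 2.5, or 3000 variable genes. Others removed Scrublet calls, subtracted free RNA or left out the 100 most abundant free-RNA genes. Removal of the highest 5% of doublet scores was added after seeing the data. Sizes moved more. Adra1a in luminal duct-like over other nuclei was 5.33 (log2) in Csf2-/- and 5.07 in Csf2+/- with free RNA subtracted, and 5.06 and 4.76 with the doublet scores removed. Adrb1 in the Sox10/Dennd2d class over other nuclei was 1.87 and 1.76 with free RNA subtracted, 1.42 in Csf2+/- with the doublet scores removed, and in Csf2-/- 1.47 at resolution 1.0, 1.47 with 3000 variable genes and 1.44 without the abundant free-RNA genes.

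For Csf2-/- over Csf2+/-, Chrm3 in the Sox10/Dennd2d class turned to 0.060 with free RNA subtracted and to 0.054, 0.60 and 0.40 in clusters 1, 2 and 25 alone, and in the Myrfl/Lmod2 class it was -0.32 with free RNA subtracted. Adra1a in luminal duct-like nuclei turned to 0.15 in cluster 6 alone, and was -0.024 with free RNA subtracted and -0.027 without the abundant free-RNA genes. Adrb1 in the Sox10/Dennd2d class was 0.44 under each of those 2 settings, 0.51 and 1.21 in clusters 0 and 2 alone, and turned to -0.19 in cluster 25 alone, which holds 46 and 8 nuclei. The clusters alone were chosen after seeing the data.

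Counts of pairs depended on the minimum. At 50 UMIs, 47 receptor and class pairs were at least 2-fold below the other nuclei, and 0 were past 2-fold between genotypes in either direction; at 10 UMIs, 4 were higher in Csf2-/-. Pathway pairs were 35 higher and 49 lower at 10 UMIs, and 3 higher and 10 lower at 50 UMIs. The cause of these moves was not tested, other than that a higher minimum leaves fewer pairs. Thinned to 500 UMIs, 8 of 10 shares of nuclei moved down (Adra1a in luminal duct-like nuclei to 31.7% in Csf2-/- and 32.2% in Csf2+/-). With a pseudocount of 1 CPM, 1 of the 5 genes most alike to Adra1a and 3 of those for Chrm1 stayed among the 5, against 4 or 5 for Chrm3, Adrb1 and Vipr1. No paired analysis was possible because each genotype has 1 library. Depth limits Adra1b, Vipr2, Tacr1 and Oxtr most.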
